A study of Mus musculus with 5 samples.

Results

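This account covers 9 genes of the HOX network of blood stem and progenitor cells: the HOXA genes Hoxa5, Hoxa7, Hoxa9 and Hoxa10, the HOXB genes Hoxb3, Hoxb4 and Hoxb5, and the cofactor genes Meis1 and Pbx3. Members were all probe sets that the platform annotation assigns to one of these symbols alone, which gave 17 probe sets among the 45037 tested, 7 for HOXA, 5 for HOXB and 5 for the cofactors. RNA was measured on Affymetrix arrays in KLS cells, the c-Kit+, lineage-negative, Sca-1+ fraction that contains the blood-forming stem cells of the mouse along with early multipotent progenitors. The Rb family deficient group (3 arrays) is labelled Rb -/-, p130 -/- and p107-/-. The group titled wild type (2 arrays) is labelled Rb +/+ and p130 +/+ but p107+/-, so the controls carry a single intact copy of that gene. Mice of both groups are described with the same protocol: Mx1Cre, a recombinase driven by an interferon-responsive promoter that is not restricted to blood cells, was induced in mice aged 6 weeks, and the sort took place 2 months after that. The labels do not say whether the controls carried the recombinase, nor whether each array stands for 1 mouse or a pool, so every p-value measures only the spread between these arrays, which may be technical. The study left out 1 of its 6 hybridisations for high background.

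HOX genes encode homeodomain transcription factors that lie side by side in clusters and give cells positional and lineage identity. In the marrow, genes of the HOXA and HOXB clusters are active in stem and progenitor cells and are switched off as cells mature. HOX proteins bind DNA together with PBX and MEIS proteins, homeodomain partners of the TALE class that sharpen their choice of sites, and the pairing of Hoxa9 with Meis1 is a well-known driver of myeloid leukaemia in mice. RB, p107 and p130 are the pocket proteins that restrain E2F transcription factors and thereby entry into the cell cycle. The comparison asked whether stem and progenitor cells without pocket proteins held different levels of these HOX and cofactor transcripts.

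The promoters of Hoxa9 and Meis1, the best-known pair, and of Hoxa10, the HOXA member whose groups did not overlap on its brightest probe set, are shown as the 250 bases before each annotated start (RefSeq, GRCm38.p6), of which Hoxa10 has 2. Of the 9 members, 6 had a promoter in the table used. Capitals mark CCAAT and TATAAA, read on either strand.
Hoxa9 (chr6:52227371-52227620, minus strand): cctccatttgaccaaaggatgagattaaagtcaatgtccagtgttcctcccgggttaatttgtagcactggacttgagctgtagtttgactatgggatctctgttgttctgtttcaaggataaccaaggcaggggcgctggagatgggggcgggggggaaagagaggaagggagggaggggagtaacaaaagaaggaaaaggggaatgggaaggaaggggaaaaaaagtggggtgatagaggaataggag
Hoxa10 (chr6:52240855-52241104, minus strand): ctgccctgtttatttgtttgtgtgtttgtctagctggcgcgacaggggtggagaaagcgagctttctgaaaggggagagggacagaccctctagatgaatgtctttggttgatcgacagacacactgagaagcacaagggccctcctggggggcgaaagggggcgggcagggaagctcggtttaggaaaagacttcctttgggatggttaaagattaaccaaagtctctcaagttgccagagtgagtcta
Hoxa10 (chr6:52234940-52235189, minus strand): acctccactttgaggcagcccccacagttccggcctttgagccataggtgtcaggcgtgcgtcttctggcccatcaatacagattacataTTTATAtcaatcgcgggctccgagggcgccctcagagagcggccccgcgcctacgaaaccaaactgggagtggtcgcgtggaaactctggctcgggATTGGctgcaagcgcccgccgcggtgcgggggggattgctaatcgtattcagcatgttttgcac
Meis1 (chr11:19018970-19019219, minus strand): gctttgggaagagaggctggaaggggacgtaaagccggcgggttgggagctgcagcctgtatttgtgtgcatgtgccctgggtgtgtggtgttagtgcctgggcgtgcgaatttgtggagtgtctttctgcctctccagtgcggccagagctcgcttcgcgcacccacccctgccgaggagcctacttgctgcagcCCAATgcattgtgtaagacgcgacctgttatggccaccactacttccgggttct
The E2F words TTTCCCGC, TTTGGCGC, TTTCGCGC and TTTGCCGC, searched on both strands, were in none of the 7 member promoters and in 1.86% of all 32851 promoters of this length. The words TGACAG, bound by MEIS proteins, and TGATTNAT, bound by PBX with HOX proteins, were also absent from the 7, against 15.9% and 2.82% of all promoters. CCAAT was in 33.8% of all promoters and in those of Meis1, Hoxa5 and the downstream Hoxa10 start, and TATAAA in 12.4% and in that of the downstream Hoxa10 start. These matches describe letters in a window and not binding.

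Several facts of the arrays bear on what follows. Array medians lay between 4.71 and 4.74 on the log2 scale. Rbl1, which encodes p107, read 5.15, 4.25 and 4.73 in deficient and 8.33 and 7.16 in wild type cells on its brightest probe set. The means there were 4.71 and 7.75 (difference -3.04, limma adjusted p = 0.0513 over all probe sets, just short of the threshold). Rb1 and Rbl2 differed by -0.36 and -0.46 on theirs and did not pass either. Rb1 read 8.93 on deficient 1, above both wild type arrays (8.84 and 8.65), and 7.77 and 8.46 on the other deficient arrays, so the groups overlapped. The position of the probes against the deleted parts of the genes was not given in the sources used here. Among KLS markers, 6 of 8 had a probe set: Kit read between 10.83 and 11.25 and Cd34 between 11.79 and 12.27 on all arrays, and Procr, a stem cell surface marker, fell (difference -1.62, limma adjusted p = 0.0305). The sort removes lineage-positive cells, and all 9 neutrophil markers fell, with summed intensities of 1317 to 2336 on deficient and 49616 to 60654 on wild type arrays. Of 8 measured B and plasma cell markers, 3 fell and 5 did not pass, against 1.41% of all genes called lower. Their sums were 615 to 768 on deficient and 13725 to 16471 on wild type arrays. Most of the wild type sums came from Igha (9700 and 11662) and Jchain (2247 and 3437). For T and NK cells 2 of 7 markers fell (sums 623 to 1108 on deficient and 473 to 1149 on wild type arrays); Thy1, the 1 marker with a higher mean (log2 9.53 in deficient and 8.67 in wild type cells), gave intensities of 489, 982 and 844 on deficient and 230 and 721 on wild type arrays, and the other 6 had lower means, 4 of them on every deficient array. For erythroid cells 0 of 6 markers changed at adjusted p under 0.05 (limma; 0 also at an unadjusted p under 0.05; sums 1159 to 2510 on deficient and 1293 to 2280 on wild type arrays). Stromal and endothelial sums were 182 to 212 on deficient and 210 to 216 on wild type arrays, with 0 of 8 markers called (limma; 2 at an unadjusted p under 0.05). RMA values do not reach 0. Of the 8 B and plasma cell markers 3, Pax5 among them, read below the array median in both groups, as did Ncr1 for NK cells. Vpreb1 (6.36 in deficient and 9.54 in wild type cells), Igll1 (5.84 and 7.61) and Cd79b (8.63 and 9.07) had means above it in both groups. Of these, Igll1 fell and the others did not pass. Igha (5.50 in deficient and 13.38 in wild type cells), Jchain (3.96 and 11.44) and the NK cell receptor gene Klrd1 (4.07 and 6.43) were well above it in wild type cells and fell. The part of these other cells in the HOX and cofactor values was not tested.

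None of the 9 genes passed the threshold, an adjusted p under 0.05 over all features (limma, Benjamini-Hochberg). Over the 17 probe sets the smallest adjusted p was 0.197 and 0 were called, against 0.491% of all probe sets; 4 had an unadjusted p under 0.05, against 14.1% of all, and 5 were lower on every deficient array, against 15.2% of all. With the brightest probe set per gene, 0 of 9 genes were called, where 0.83% of 18193 genes were higher and 1.41% lower. In that fit 3 members had an unadjusted p under 0.05, all with lower means in deficient cells, a direction in which 9.86% of all genes had such a p: Hoxa10, Hoxb5 and Pbx3, one from each class. The same 3 were lower on every deficient array than on either wild type array, 33.3% of the members against 18.6% of all genes in that direction, and 0 members were higher on every deficient array, against 16.5% of all genes. The median difference over the members was -0.13 on the log2 scale, against -0.01 over all genes. For the other 6 genes the 95% interval of the difference on the brightest probe set lay within 1 log2 unit of 0 in both directions, which is 2-fold. On the other probe set of Hoxa5 (1448926_at) the interval reached past that bound, from -1.01 to -0.03.

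**Figure D1:**
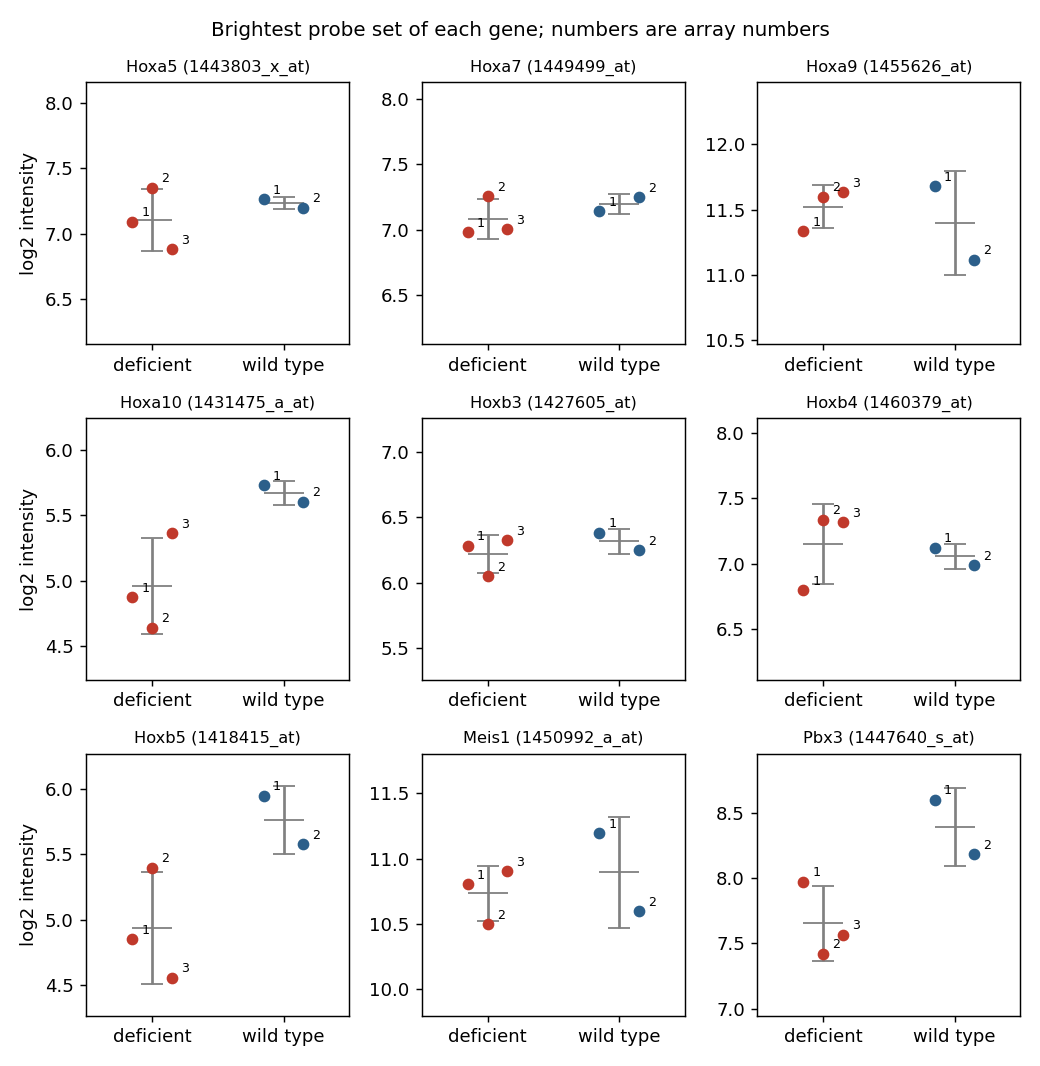
Log2 RMA intensity of the brightest probe set of each of the 9 genes on 3 Rb family deficient (red, left) and 2 wild type (blue, right) arrays; bars give the mean and SD, small numbers the array, and each vertical axis spans 2 log2 units. The groups are apart for Hoxa10, Hoxb5 and Pbx3 and overlap for the other 6 genes, and wild type 1 and 2 lie far apart for Hoxa9 and Meis1.

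Among the HOXA genes, Hoxa9 maintains progenitor growth and is the HOX gene most tied to myeloid leukaemia. On its brightest probe set (1455626_at) it read 11.34, 11.60 and 11.63 in deficient cells, against 11.68 and 11.12 in wild type cells. All 3 deficient arrays thus fell between the wild type arrays, with means of 11.52 ± 0.16 (SD, n = 3) and 11.40 ± 0.40 (SD, n = 2), a difference of 0.12 (SE 0.20, limma adjusted p = 0.864, 95% interval -0.36 to 0.61). Its direction rested on single controls: the difference was 0.41 without wild type 1 and -0.16 without wild type 2. The other Hoxa9 probe set (1421579_at) read between 6.19 and 6.31 on all 5 arrays and differed by -0.0060 (SE 0.10).

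Hoxa10, a neighbour of Hoxa9 in the cluster that acts in progenitors and early myeloid cells, read 4.87, 4.64 and 5.36 in deficient cells and 5.73 and 5.60 in wild type cells (1431475_a_at). Every deficient array lay below both wild type arrays, and the spread among deficient arrays, 0.72 from lowest to highest, was as wide as the difference between groups. That difference was -0.71 (SE 0.22, limma adjusted p = 0.230, 95% interval -1.25 to -0.17), a level 1.63-fold higher in wild type cells. It ran from -0.91 without deficient 3 to -0.55 without deficient 2. The values lie close to the array medians, where RMA compresses differences. The other Hoxa10 probe set (1446408_at) read below those medians on all arrays, between 3.82 and 4.02, and gave a difference of 0.04 (SE 0.11), and the average of both sets differed by -0.33.

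Hoxa5 is best known from lung development and also acts in blood progenitors. It read 7.09, 7.35 and 6.88 in deficient and 7.26 and 7.20 in wild type cells on 1443803_x_at, where the groups overlapped (difference -0.13, SE 0.16, adjusted p = 0.820). On its other probe set (1448926_at) the values were 6.84, 6.48 and 6.90 in deficient and 7.49 and 7.02 in wild type cells. There every deficient array was lower, with a difference of -0.52 (SE 0.20, limma adjusted p = 0.330) that was -0.28 without wild type 1 and -0.75 without wild type 2, so the groups were apart on 1 of the 2 Hoxa5 probe sets and overlapped on the other. Hoxa7, which is co-activated with Meis1 in some mouse leukaemias, read 6.98, 7.26 and 7.01 in deficient and 7.14 and 7.25 in wild type cells. Its groups overlapped (difference -0.12, SE 0.13, adjusted p = 0.791, 95% interval -0.43 to 0.20).

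Among the HOXB genes, Hoxb4 expands stem cells when it is overexpressed. It read 6.80, 7.33 and 7.32 in deficient cells, against 7.12 and 6.99 in wild type cells (1460379_at). Deficient 1 was the lowest of the 5 arrays and the other two deficient arrays the highest, giving a difference of 0.10 (SE 0.19, limma adjusted p = 0.899, 95% interval -0.38 to 0.57). It was 0.0023 without deficient 2 and 0.27 without deficient 1. The other Hoxb4 probe set (1451761_at) read from 4.86 to 5.18 and differed by 0.04. Hoxb3, whose forced expression disturbs lymphoid development in mice, read 6.28, 6.05 and 6.32 in deficient and 6.38 and 6.25 in wild type cells (1427605_at). The groups overlapped on this probe set (difference -0.10, SE 0.13, adjusted p = 0.832) and on the other one (1456229_at; difference -0.30, SE 0.23, adjusted p = 0.674). The second of these values was -0.01 without wild type 1 and -0.58 without wild type 2.

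Hoxb5 marks long-term stem cells in mouse reporter studies and had the largest difference of the 9 genes. Its single probe set (1418415_at) read 4.85, 5.40 and 4.56 in deficient cells and 5.95 and 5.58 in wild type cells. The groups did not overlap, but deficient 2 came within 0.18 of wild type 2. The difference was -0.83 (SE 0.27, limma adjusted p = 0.241, 95% interval -1.48 to -0.18), and it ran from -1.06 without deficient 2 to -0.64 without deficient 3. As for all bulk measurements here, fewer cells of a type and less RNA per cell cannot be told apart.

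Of the cofactors, Pbx3 partners HOX proteins on DNA and works with Hoxa9 and Meis1 in leukaemia. It read 7.97, 7.42 and 7.57 in deficient cells and 8.60 and 8.18 in wild type cells (1447640_s_at). This was the only one of the 9 genes whose group difference exceeded both the range of the deficient arrays (0.55) and the gap between the wild type arrays (0.42). The difference was -0.74 (SE 0.21, limma adjusted p = 0.197, 95% interval -1.26 to -0.22), 1.67-fold higher in wild type cells, and it ran from -0.95 without wild type 2 to -0.53 without wild type 1. The other Pbx3 probe set (1421193_a_at) read 6.74, 6.23 and 6.64 in deficient and 7.05 and 6.80 in wild type cells. It too was lower on every deficient array (difference -0.39, SE 0.18, adjusted p = 0.436), whereas Hoxb5 had a single probe set and the second of Hoxa10 did not share the direction of its first.

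Meis1 is required to keep adult stem cells in the marrow and is the main MEIS gene of these cells. It read 10.80, 10.50 and 10.90 in deficient cells, against 11.19 and 10.60 in wild type cells (1450992_a_at). The wild type arrays differed from each other by 0.60, more than the group means, which were 10.74 ± 0.21 (SD, n = 3) in deficient and 10.89 ± 0.42 (SD, n = 2) in wild type cells (difference -0.16, SE 0.22, limma adjusted p = 0.836, 95% interval -0.69 to 0.37). The difference was 0.14 without wild type 1 and -0.46 without wild type 2. A second Meis1 probe set (1443260_at) held the same gap more widely, with 8.17, 8.78 and 8.73 in deficient and 9.18 and 8.09 in wild type cells (difference -0.08, SE 0.36), and the third (1459423_at) read below the array medians on every array.

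**Figure D2:**
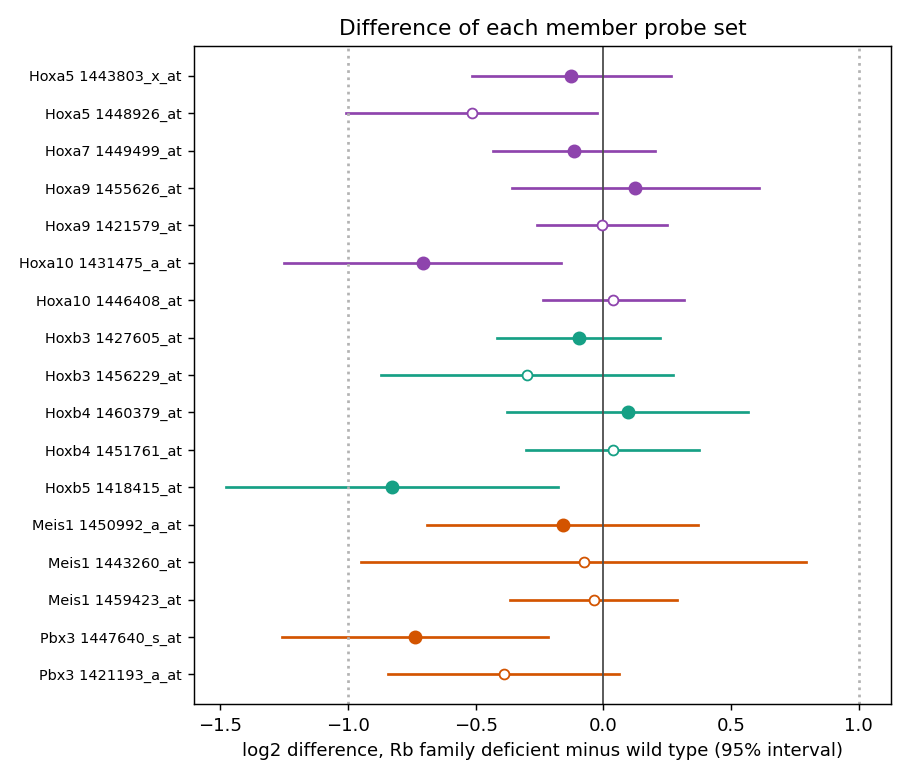
Log2 difference (Rb family deficient minus wild type) with its 95% interval for each of the 17 probe sets; purple marks HOXA, green HOXB and orange the cofactors, filled points are the brightest probe set of a gene, and dotted lines stand at 1 and -1. Of the 17 differences 13 are below 0, and 13 intervals lie wholly between the dotted lines.

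The 3 classes were then set side by side. The HOXA genes had 1 higher and 3 lower means and a median difference of -0.12, from -0.71 for Hoxa10 to 0.12 for Hoxa9. The HOXB genes had 1 higher and 2 lower means and a median of -0.10, from -0.83 for Hoxb5 to 0.10 for Hoxb4. The 2 cofactors were both lower, by 0.16 for Meis1 and 0.74 for Pbx3. Each class therefore held 1 gene lower on every deficient array and at least 1 near 0, and no difference between classes was tested.

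The spread within groups was also described. The range of the 3 deficient arrays exceeded the gap between the 2 wild type arrays for 7 of 9 genes, and the gap between wild type arrays was the wider for Hoxa9 and Meis1. Wild type 1 read above wild type 2 for 8 of 9 genes, Hoxa7 being the exception, while over all genes it read higher for 48.4%. The median size of the gap, without its sign, was 0.14 over the members and 0.17 over all genes. The gap was widest for Meis1 (0.60), Hoxa9 (0.56) and Pbx3 (0.42).

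**Figure D3:**
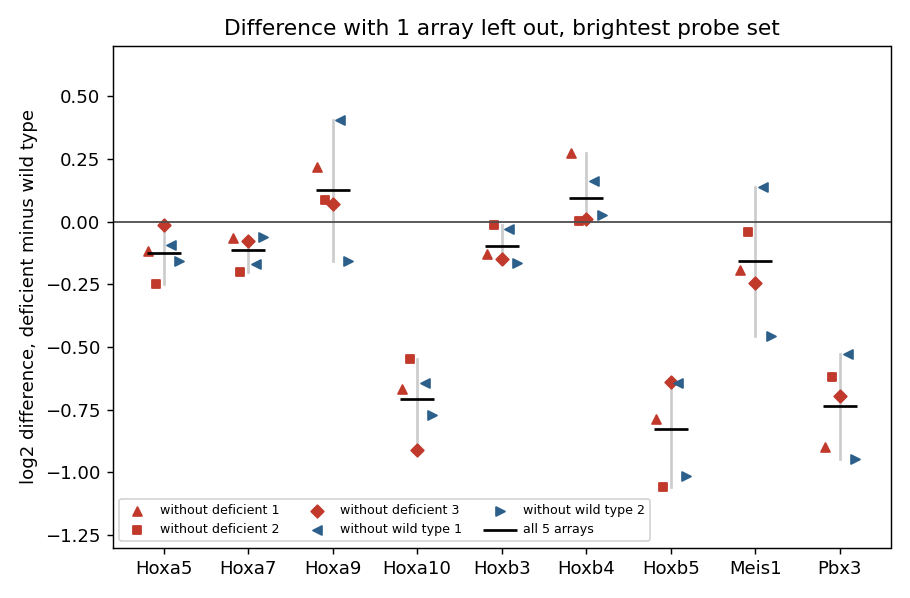
Log2 difference (deficient minus wild type) of the brightest probe set of each gene with all 5 arrays (black bar) and with each array left out in turn (red, a deficient array left out; blue, a wild type array). Hoxa10, Hoxb5 and Pbx3 stay below 0 in all 5 fits, between -1.06 and -0.53, which is fixed in advance where groups do not overlap. Hoxa5 (-0.25 to -0.01), Hoxa7 (-0.20 to -0.06) and Hoxb3 (-0.16 to -0.01) also stay below 0. Hoxb4 stays above 0, and Hoxa9 and Meis1 lie on both sides of it.

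The genes whose pattern over the 5 arrays was nearest to Hoxa9 and Meis1 were also listed. They were picked on these same arrays, so they share the gap between the controls by selection. Nearest to Hoxa9, by root mean square difference of centred log2 values, were Kidins220, a scaffold of growth factor receptors (0.028), the signalling protein gene Bcr (0.042) and the RNA-binding protein gene Ro60 (0.046). Nearest to Meis1 were the zinc finger gene Zbtb43 (0.025), the RNA-binding protein gene Fxr1 (0.041) and Gramd1b, which acts in cholesterol transport (0.043). Kidins220, for example, read 9.97, 10.25 and 10.23 in deficient and 10.33 and 9.79 in wild type cells. With 5 arrays and 45037 probe sets, such likeness is a description only.

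The rest of the HOX clusters also held no gene that passed (0 called by limma). Of the other HOXA genes 5 of 7 had a probe set, 4 of them below the array medians in both groups, and Hoxa3 had the smallest unadjusted p (difference 0.31, adjusted p = 0.223), followed by Hoxa4 (0.22) and Hoxa2 (0.23). Averaged over its probe sets, the Hoxa3 difference was 0.052. Of the other HOXB genes 6 of 7 had one. Hoxb2, which lies in the same cluster as Hoxb5, read 6.23, 6.54 and 5.87 in deficient cells, against 7.22 and 7.19 in wild type cells. Its deficient arrays were all lower and the wild type arrays nearly equal, with a difference of -0.99 (SE 0.20, limma adjusted p = 0.0704). Hoxb6 read 4.002, 4.20 and 3.99 in deficient and 5.42 and 4.55 in wild type cells, a difference of -0.92 (SE 0.26, limma adjusted p = 0.130). That difference was -1.36 without wild type 2 and -0.48 without wild type 1. All deficient arrays and wild type 2 read below the array medians, so only wild type 1 lay above them. Hoxb1 differed by 0.14. Counted with the members, 3 of 9 measured HOXB genes, Hoxb2, Hoxb5 and Hoxb6, were thus lower on every deficient array, beside 18.6% of all genes. Hoxb7 was higher on every deficient array (difference 0.10), beside 16.5% of all genes, and read below the array medians on all arrays. Of the 6 measured HOXB genes that are not members, 3 had higher and 3 lower means, with a median difference of 0.04.

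The HOXC and HOXD clusters are little used in marrow progenitors, and 5 of 7 HOXC and 7 of 8 HOXD genes read below the array medians in both groups. Their differences ran from -0.16 to 0.20 for HOXC and from -0.12 to 0.10 for HOXD, with 0 called and 0 at an unadjusted p under 0.05 (limma), where 18.7% of all genes had one. The HOXC genes with the smallest p were Hoxc6 (0.20, or 0.0033 averaged over its probe sets), Hoxc5 (-0.16, or -0.017 averaged) and Hoxc4 (0.16), and the HOXD genes Hoxd11 (-0.12), Hoxd3 (-0.11) and Hoxd12 (0.10). Among 9 measured genes of the other TALE cofactors 0 passed (limma; 2 at an unadjusted p under 0.05). The repressor gene Tgif1 had a difference of -0.40 (SE 0.16, adjusted p = 0.248), Pbx4 of 0.47 (SE 0.19, adjusted p = 0.266; 0.22 averaged over its probe sets) and Meis3 of -0.27 (SE 0.13, adjusted p = 0.344), while the Pbx2 difference was -0.12 and that of Pknox1 0.17.

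Regulators that act on HOX genes tended to have higher means. Of 18 such genes, 16 had a higher mean in deficient cells, against 8747 of all 18193 genes. On every deficient array 11 were higher, against 16.5% of all genes, and the median difference was 0.28, against -0.01. Of the 18 genes, 3 read below the array medians in both groups. Cdx4, which is among the 11, was one of them (3.44 in deficient and 3.16 in wild type cells). The gene that passed was Suz12, a core subunit of the Polycomb complex that silences HOX genes, and 17 did not pass. All 6 Suz12 probe sets were higher, by 0.36 to 1.05. In the fit over all probe sets only 1449661_at passed (limma adjusted p = 0.0457). The brightest, 1420021_s_at, did not pass there (limma adjusted p = 0.0743). With 1 probe set per gene, Suz12 read 9.997, 10.07 and 9.93 in deficient cells and 9.34 and 9.39 in wild type cells. The difference was 0.64 (SE 0.11, limma adjusted p = 0.0458). The call was lost with any array left out (adjusted p 0.108 to 0.159). Kmt2a, the MLL methyltransferase that keeps HOX genes active, differed by 0.63 (SE 0.11, adjusted p = 0.0569), the histone methyltransferase gene Dot1l by 0.68 (SE 0.13, adjusted p = 0.0600) and the acetyltransferase gene Kat6a by 0.55 (SE 0.11, adjusted p = 0.0697; 0.29 averaged over its probe sets); these 3 genes were chosen after their values were seen. Members on both sides of HOX control, silencing and activating, were thus among the higher means.

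Among 13 genes linked to HOX and MEIS proteins in blood cells or leukaemia, 1 fell, 0 rose and 12 did not pass. Id2, an inhibitor of basic helix-loop-helix factors that is also active in maturing lymphoid and myeloid cells, read 6.46, 6.46 and 6.37 in deficient cells, against 8.28 and 8.44 in wild type cells. It fell by 1.93 on the log2 scale (SE 0.11, limma adjusted p = 0.00346), passed with each array left out (-2.01 to -1.85), and its other probe sets were lower as well, the smallest difference being -0.22. Averaged over its probe sets it fell by 0.96 (SE 0.09, limma adjusted p = 0.0123). The neutrophil sums given above, 1317 to 2336 on deficient and 49616 to 60654 on wild type arrays, moved the same way as Id2, and their part in its fall was not tested. Flt3 (-0.32), Myb (0.25), Erg (-0.06) and Hif1a (0.12), a known Meis1 target, did not pass, and the list median was 0.03.

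**Figure D4:**
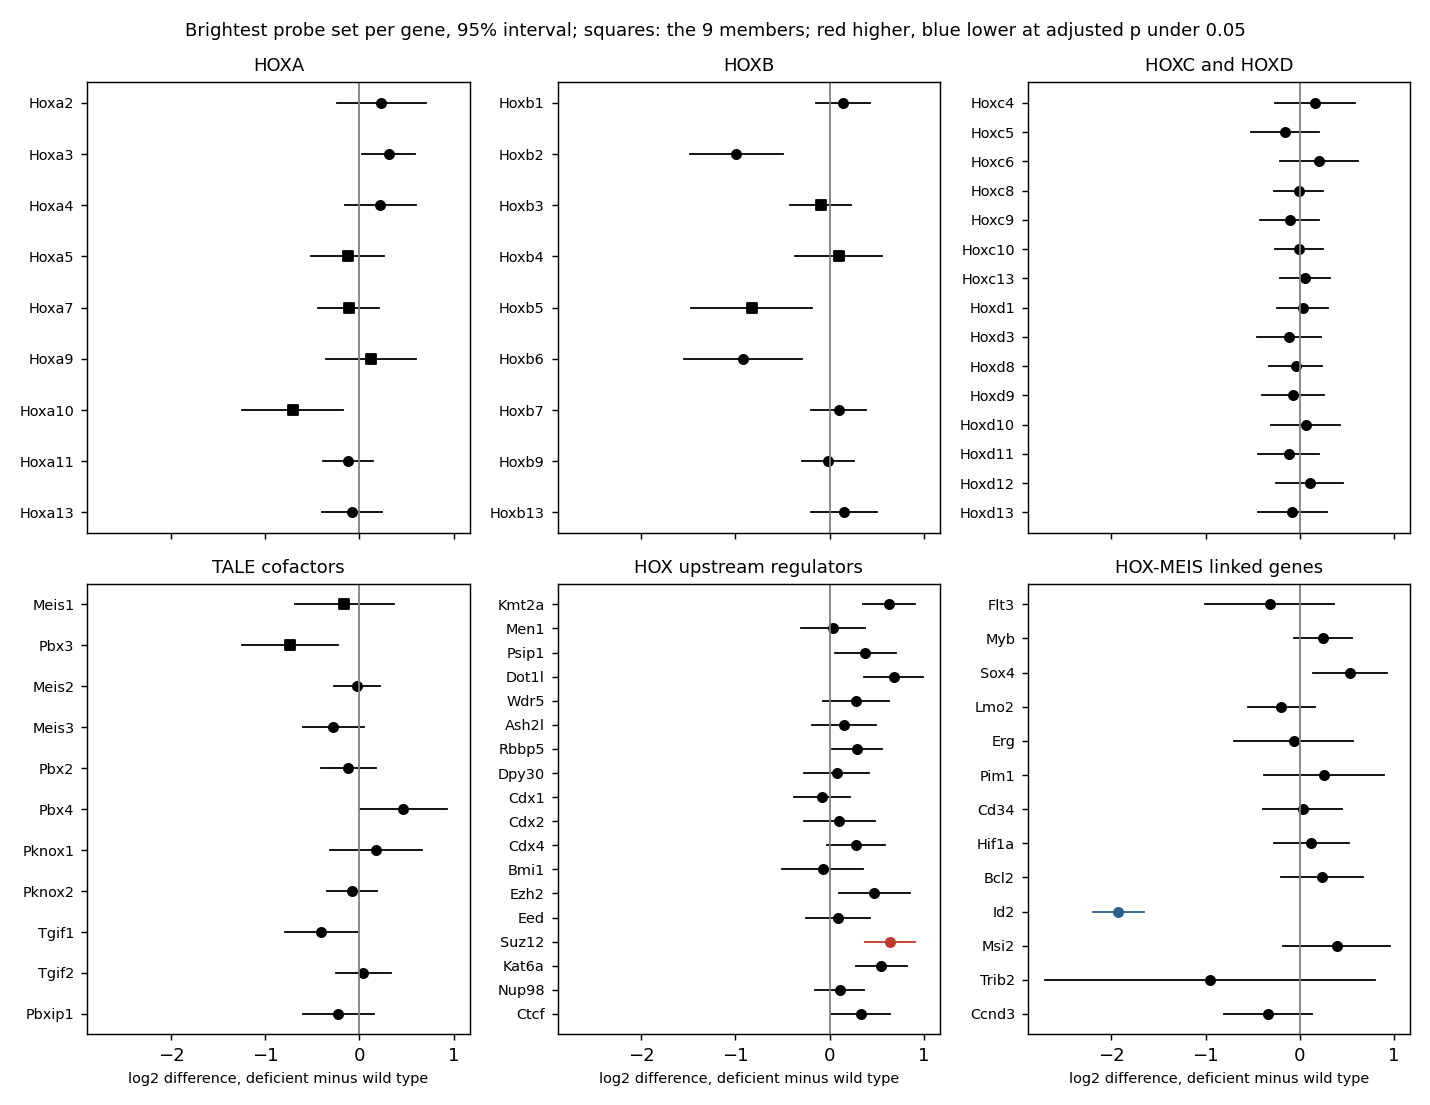
Log2 difference (deficient minus wild type) with its 95% interval for the brightest probe set of every measured gene of the HOX clusters, the TALE cofactors, the HOX upstream regulators and the linked genes; squares are the 9 members. Suz12 (red, 0.64) and Id2 (blue, -1.93) are the genes past the threshold, and most upstream regulators lie right of 0.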

How the data were processed

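Total RNA of sorted KLS cells was labelled with biotin as cRNA and read on Affymetrix arrays, as the labels' protocols state. The deposited values are intensities, 1 for each probe set on each array, made by the authors with RMA (background model, quantile normalization, probe set summary), per the submitters' processing notes, with no version given. RMA forces equal distributions, so a shift of all transcripts would not be seen. The intensities, 6.96 to 31249, were taken as linear and log2 was computed here. All 5 columns were matched to samples; arrays have no depth, and their number limits precision.

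Gene names came from the platform annotation of GEO (34945 with 1 symbol, 932 with several, 9160 unnamed; 64 AFFX controls left out). limma 3.58.1 in R 4.3.3 (lmFit, eBayes, two-sided, no covariate) was fitted to all 45037 probe sets, and to the brightest probe set of each of 18193 genes for gene counts, with Benjamini-Hochberg adjustment over the whole table. Differences of the members and of Rb1, Rbl1 and Rbl2 are from the first fit. List genes and cell type markers are from the second, except where the fit over all probe sets is named. The fit was tested on simulated data. The members and lists were chosen with earlier results of these data known. Of 121 list genes that are no members, 108 had a probe set. Named genes are all members, the list genes that passed or else up to 3 with the smallest p, and the 3 genes nearest in pattern to Hoxa9 and Meis1 with a mean log2 of at least 6. Outside that rule fall Hoxb7, Kmt2a, Dot1l, Kat6a, Pbx2, Pknox1, Flt3, Myb, Erg, Hif1a and the cell type markers. Alternatives were other normalizations, a filter on dim probe sets, an intensity trend, array weights, a block for the replicate number, fits with any single array left out, another threshold and averaging the probe sets of a gene. Motifs were searched in RefSeq promoters of GRCm38.p6.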

Additional observations from a re-analysis of the deposited data

How the results depend on the processing

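The counts of member probe sets and member genes past the threshold were 0 in each direction under every alternative run. The counts over all probe sets, 74 higher and 147 lower in deficient cells, were less steady. With only probe sets of a mean log2 of at least 5, 119 were higher. With an intensity trend 141 were higher and 260 lower, and at adjusted p under 0.1, 451 and 497. With 1 array left out they ran from 2 to 5 higher and from 21 to 73 lower. With the replicate number of the titles as a block, which leaves deficient 3 without a partner, 0 were higher and 15 lower. The numbers gave no sign of a pairing: deviations of same-numbered arrays correlated by -0.05 for number 1 and -0.02 for number 2. With 2 wild type arrays, whose deviations mirror each other, these values cannot settle whether the arrays were paired.

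Among member probe sets, median centring turned the near-zero difference of Hoxa9 1421579_at to 0.0096, and no other alternative that kept all 5 arrays turned a sign. With 1 array left out, signs turned in 11 fits of 85. The ranges were -0.16 to 0.41 for Hoxa9 1455626_at, -0.033 to 0.030 for Hoxa9 1421579_at, -0.0022 to 0.10 for Hoxa10 1446408_at, -0.049 to 0.12 for Hoxb4 1451761_at, -0.46 to 0.14 for Meis1 1450992_a_at, -0.62 to 0.47 for Meis1 1443260_at and -0.11 to 0.042 for Meis1 1459423_at. Outside the members, Hoxd3 ran from -0.23 to 0.0014. Suz12 lost its call under second quantile normalization, cyclic loess, the dim filter, array weights and the block (adjusted p 0.0506 to 0.185), Id2 lost its call under the block (-1.90, adjusted p = 0.0610), and Dot1l passed as the mean of its probe sets (0.61, adjusted p = 0.0407). Averaging all probe sets of a gene also moved Hoxa5 to -0.32, Hoxb3 to -0.20, Hoxa9 to 0.059, Hoxb4 to 0.066 and Meis1 to -0.091, beside the genes named with their averages above, with no sign turned. The cause was not tested. Signal near background limits Hoxa10, Hoxb5 and Hoxb6.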
